A study of Mus musculus with 14 samples.

Results

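The Hox genes of the mouse colon were examined through every probe set whose only gene symbol is Hoxa, Hoxb, Hoxc or Hoxd followed by a number. There were 40 such probe sets among 22626 tested, and they stood for 34 of the 39 mouse Hox genes in RefSeq. Hoxa6, Hoxb7, Hoxc10, Hoxc11 and Hoxc12 had no such probe set, and 3 further probe sets with Hox in their annotation were no members because they carried Hoxa11os or several symbols. Expression was measured on 14 Affymetrix arrays of RNA from male mice and compared by cluster and by paralog number, the position a Hox gene holds within its cluster.

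Tumors of the colitis-associated model (CAC tumors, on 4 arrays with 1 mouse each) grew in C57BL/6J wild-type mice given azoxymethane, a carcinogen, at 10 mg/kg and then 3 cycles of dextran sodium sulfate, an irritant that brings on colitis, at 2.5% in the water for 7 days with 14 days of recovery. CAC controls (2 arrays, pools of 5 mice) were tumor-free distal colon epithelium from C57BL/6J mice, and the labels do not say whether these mice had been given either agent. Sporadic tumors (5 arrays, 1 mouse each) came from C57BL/6J-ApcMin/+/J mice, which carry a mutant allele of Apc, an inhibitor of Wnt signaling. Sporadic controls (3 arrays, pools of 4 mice) were tumor-free distal colon epithelium labelled with that same strain, so the Apc mutation belongs to both sporadic groups. All tumors came from the most distal stretch of the large intestine and were used whole, whereas the controls were purified epithelium. All CAC arrays are experimental block 1 and all sporadic arrays block 2, so model and block cannot be told apart. The labels give no ages, and a pool of mice counts as 1 sample.

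Hox genes encode transcription factors that tell cells where they lie along the body axis. Mammals carry 4 clusters, and genes at the low-numbered end of a cluster act in anterior tissue while those at the high-numbered end act in posterior tissue, so the hindgut is known for the high paralog numbers. In the adult colon, Hox genes are active both in the epithelium and in the connective tissue and muscle beneath it, and Hoxb13, Hoxa13 and Hoxd13 are known as marks of the most distal bowel.

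Values are the authors' GCRMA intensities, background-corrected and normalized array signals in arbitrary units that were rounded to whole numbers. They serve to compare arrays for the same probe set, and levels of different genes are not set against each other. The lowest intensity anywhere was 2, and array medians lay between 15 and 18. A probe set is called expressed here if the geometric mean of at least 1 of the 4 groups reached 10, and dim otherwise, because no detection calls were used. A difference is a log2 value of tumor over control (mean difference ± SE), and it passed at an adjusted p under 0.05 in limma after Benjamini-Hochberg adjustment over all probe sets. The p-values set a mean difference against the spread between these arrays, estimated over all 4 groups together. The number of arrays limits their precision. Control arrays are pools of mice, so the p-values do not reflect the spread between single control mice.

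The labels were checked against markers. Summed intensities of 8 epithelial markers were 50605 to 61500 in CAC tumors, against 68707 to 71285 in CAC controls, and 43419 to 50640 in sporadic tumors, against 57568 to 59448 in sporadic controls. The sum of 12 fibroblast and matrix markers was 6321 to 14826 in CAC tumors against 207 to 379 in CAC controls, and 6734 to 14063 in sporadic tumors against 110 to 114 in sporadic controls. Of these 12 genes, 10 passed as higher in CAC tumors and 11 in sporadic tumors, and none as lower. Smooth muscle markers (9 genes) summed to 580 to 1759 in CAC tumors against 78 to 82 in CAC controls, and to 356 to 1381 in sporadic tumors against 71 to 75 in sporadic controls, with 3 genes passing as higher in CAC tumors and 2 in sporadic tumors. Endothelial markers (8 genes) summed to at least 288 in each CAC tumor against 104 to 134 in CAC controls, and to 240 to 597 in sporadic tumors against 65 to 95 in sporadic controls, with 3 and 5 passing as higher. Leukocyte markers (8 genes) summed to 807 to 1033 in CAC tumors against 283 to 377 in CAC controls, and to 558 to 954 in sporadic tumors against 345 to 420 in sporadic controls. Of these, 4 passed as higher in each model, and Cd3e and Cd79a, markers of T and B cells, passed as lower in CAC tumors at 12 or less on every array. The brightest of them, Cd14, made up much of the sum. Its group means were 567 in CAC tumors, 213 in CAC controls, 452 in sporadic tumors and 311 in sporadic controls. Cd14 did not pass in sporadic tumors (log2 difference 0.54, adjusted p = 0.13). The calls of Csf1r were lost under 9 of 22 alternatives in CAC tumors and 11 of 22 in sporadic tumors. That of Ptprc was lost under 4 of 22 in CAC tumors. Neuron and glia markers (8 genes) summed to between 50 and 82 on all arrays, with 3 passing as lower in CAC tumors and 2 in sporadic tumors. The CAC call of Gfap, among these, was lost under 16 of 22 alternatives. The summed signal of connective tissue, muscle, vessel and immune markers was higher in every tumor than in every control of its model, and in such bulk samples fewer cells of a type and less RNA per cell cannot be told apart. Their part in the Hox results below was not tested.

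CAC tumor 1 stood apart from the other arrays. It had 1866 for Krt5 and 2467 for Krt13, keratins of stratified squamous epithelium such as that of the anal margin, against 8, 8 and 8 for Krt5 and 27, 11 and 10 for Krt13 in the other CAC tumors. Its sum of 9 squamous markers was 9169, against at most 627 in the other CAC tumors. The 9 did not all go together. Trp63 read 8 in every CAC tumor and passed as lower in that model (adjusted p = 0.00925). Krt14 read 1739 in CAC tumor 1, but was 114 or more in every CAC tumor, against 7 in CAC controls. It was 31 to 119 in sporadic tumors, against 7 to 12 in sporadic controls. The name of the Krt14 probe set ends in the less specific suffix _x_at, so its signal can include related transcripts. Leaving out CAC tumor 1 kept the count of Hox probe sets that passed in the CAC comparison at 15, and values without this tumor are given where they matter. CAC tumor 4 stood apart in the Hoxd cluster, as described with those genes.

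Hox probe sets of the low-numbered ends of the clusters seldom reached the limit of 10, whereas most of those at the high-numbered ends did. Most of all probe sets also reached it, 14269 of the 22626 tested. Without detection calls, a dim probe set does not show that its gene is silent. Of 14 probe sets for paralogs 9 to 13, 10 were expressed, against 3 of 11 for paralogs 5 to 8 and 1 of 15 for paralogs 1 to 4. By gene this was 9 of 13, 3 of 9 and 1 of 12. The sole expressed probe set of the low-numbered class belonged to Hoxa3, and its signal can include related transcripts because its name ends in the less specific suffix _s_at.

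By cluster, Hoxa on chromosome 6 had 7 of 13 probe sets expressed and Hoxd on chromosome 2 had 4 of 9. Hoxb on chromosome 11 had 2 of 10, which were Hoxb9 and Hoxb13, and Hoxc on chromosome 15 had 1 of 8, a probe set of Hoxc6. In all, 14 probe sets of 13 genes were expressed and 26 probe sets were dim, and for 21 genes every probe set was dim. The probe set just outside the limit was Hoxa2, with a highest group mean of 9.95, and the one just inside was Hoxd12, with 10.8. Hoxd12 reached the limit in CAC tumors alone, which read 45, 5, 12 and 5. Arithmetic group means would have put 16 probe sets in the expressed class. Of the dim probe sets, 20 stayed under 10 on every array and 5 had the same whole number on all 14 arrays.

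**Figure D1:**
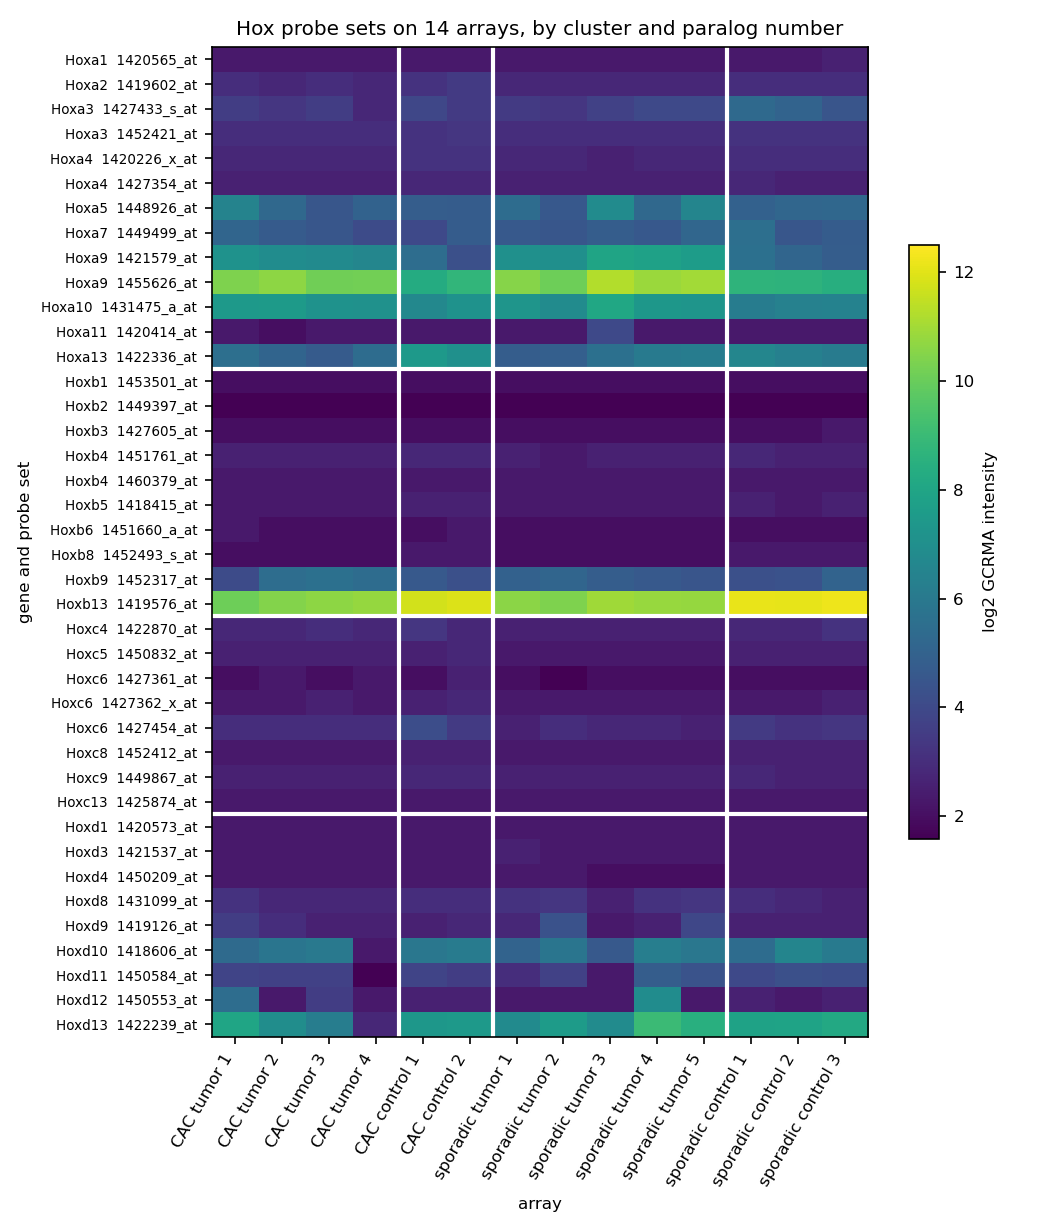
Log2 GCRMA intensity (colour) of the 40 Hox probe sets (rows, ordered by cluster and paralog number, white lines between clusters) on the 14 arrays (columns, white lines between groups). The bright rows are Hoxa9 and Hoxb13, and signal elsewhere lies mostly at paralog 9 and above, with CAC tumor 4 dark for Hoxd10, Hoxd11 and Hoxd13.

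Tumors and control epithelium differed in a small number of expressed Hox genes, and these moved in opposite directions. Hoxa9 was higher in tumors of both models and Hoxb13 lower in both. A faint probe set of Hoxc6, which reached the limit of 10 in CAC controls alone, also passed as lower in both. Hoxa13 fell in CAC tumors, and in sporadic tumors Hoxa10 rose and the expressed probe set of Hoxa3 fell. In CAC tumors 15 of 40 Hox probe sets passed, whereas 39.9% of all probe sets tested did. Of the 15, 2 were higher (background 14.2%) and 13 lower (background 25.6%). In sporadic tumors 14 of 40 passed (background 46%), with 3 higher (background 17.8%) and 11 lower (background 28.2%). The share of Hox probe sets that passed was thus near or below that of all probe sets in every direction except the lower one in CAC tumors, at 32.5%.

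Most of the lower calls were small steps near the floor of the scale. In the CAC comparison 10 of the 13 lower probe sets were dim, with log2 differences between -0.41 and -0.22, and in the sporadic comparison 8 of 11 were dim, between -0.34 and -0.17. Hoxb8, for example, read 4 on every tumor array and 5 on every control array, a single rounded unit. Among all probe sets the dim class behaved likewise: of 8357 dim probe sets, 2650 passed as lower in CAC tumors and 9 as higher, and in sporadic tumors 2432 as lower and 46 as higher. All tumors lay above all controls of their model for 2 Hox probe sets in the CAC model (17.9% of all probe sets) and 3 in the sporadic one (17.5%). They lay below all controls for 12 (29.1%) and 10 (24.6%). With at least a 2-fold change required, 2 Hox probe sets were higher (background 8.59%) and 2 lower (background 6.2%) in CAC tumors. In sporadic tumors 3 were higher (background 10.3%) and 2 lower (background 8.08%). The median log2 difference of the 40 Hox probe sets was -0.11 for CAC and -0.09 for sporadic tumors, against -0.05 and -0.04 over all probe sets.

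**Figure D2:**
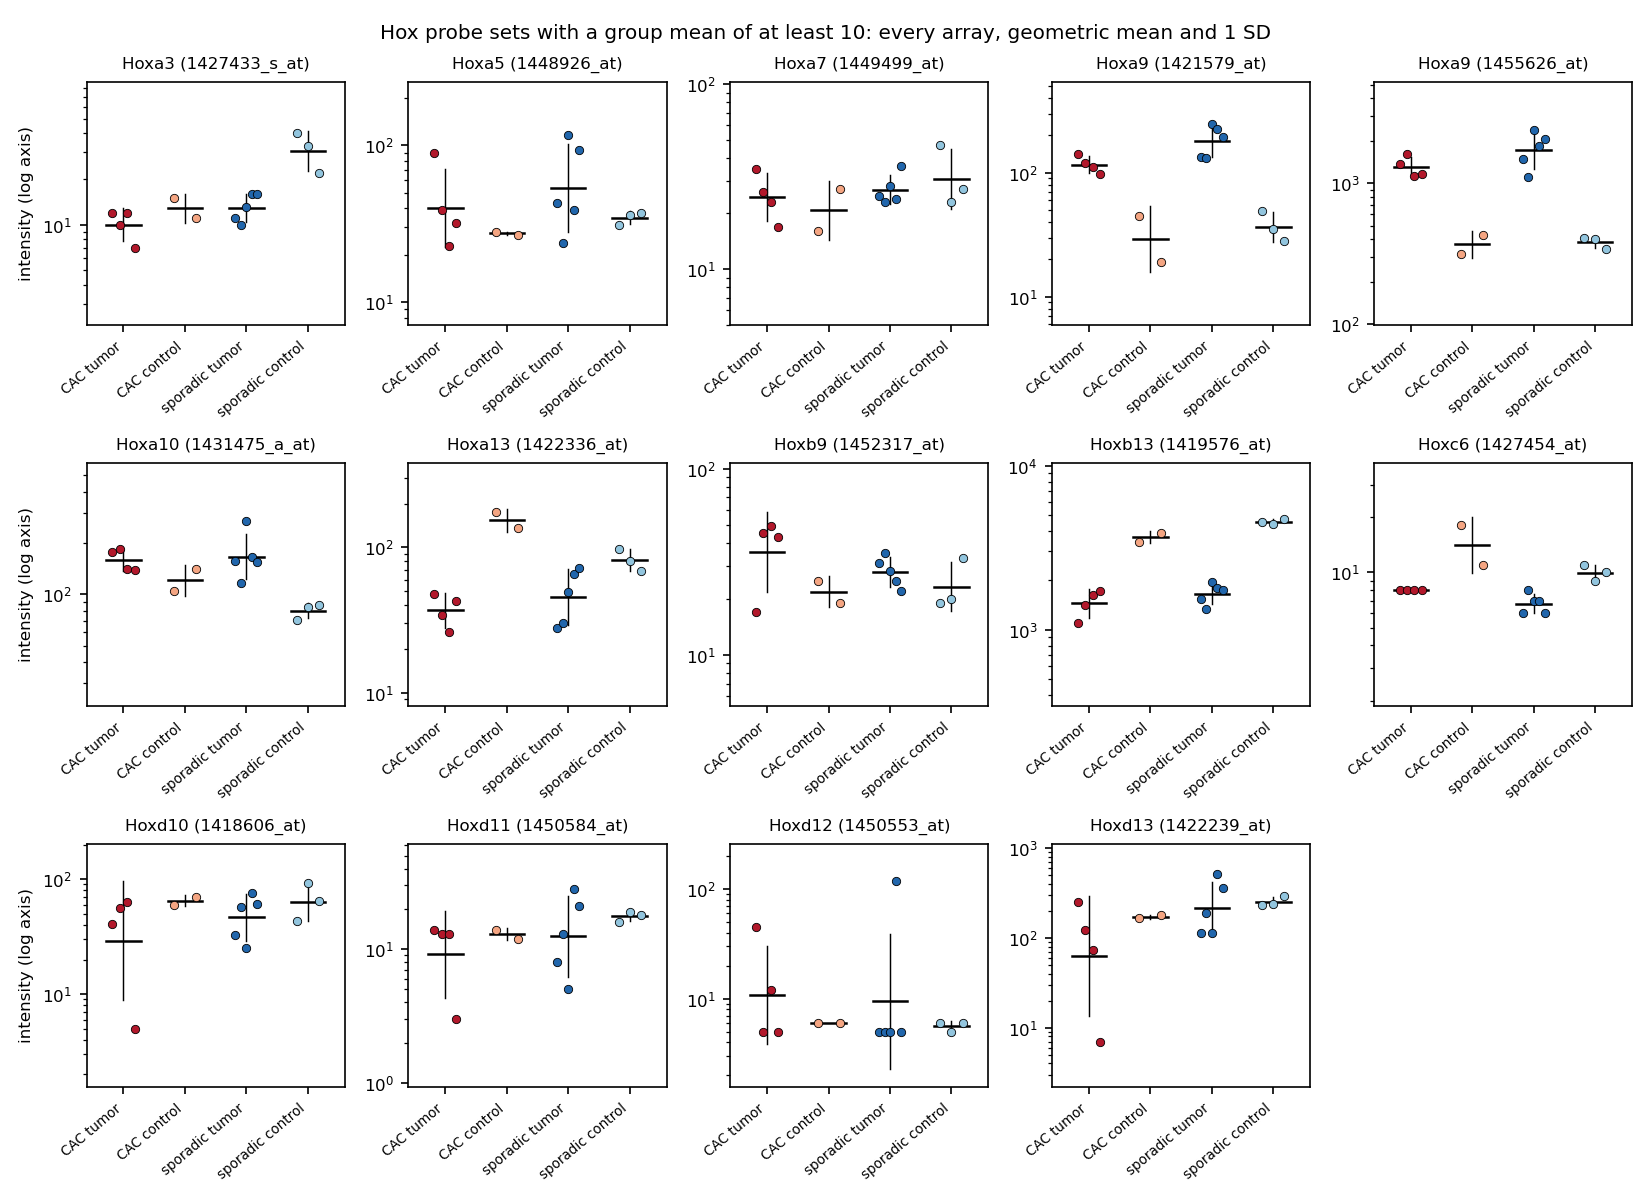
Intensity (log axis, a separate range for each panel) of the 14 expressed Hox probe sets on every array (points), with the geometric mean (horizontal bar) and 1 SD of the log2 values (vertical line) of CAC tumors, CAC controls, sporadic tumors and sporadic controls. Both Hoxa9 probe sets lie higher in all tumors than in any control of the same model, and Hoxb13 lies lower in all tumors.

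Hoxa9, a posterior HOXA protein also known as an oncogene in leukemia, was measured by 2 probe sets. For 1455626_at the CAC tumors read 1361, 1623, 1118 and 1162, and the CAC controls 316 and 431. The sporadic tumors read 1479, 1102, 2397, 1838 and 2049, and the sporadic controls 409, 404 and 341. Every tumor lay above every control, and the lowest tumor of all (1102) was more than 2-fold above the highest control (431).

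On the log2 scale this probe set averaged 10.35 ± 0.25 in CAC tumors (SD, n = 4) and 8.53 ± 0.32 in CAC controls (SD, n = 2). It averaged 10.74 ± 0.44 in sporadic tumors (SD, n = 5) and 8.58 ± 0.15 in sporadic controls (SD, n = 3). The log2 difference was 1.82 ± 0.28 in the CAC model (3.53-fold, adjusted p = 4.25e-04) and 2.16 ± 0.23 in the sporadic model (4.47-fold, adjusted p = 2.72e-05). The second probe set, 1421579_at, was dimmer and gave the same picture. It read 141, 119, 111 and 97 in CAC tumors, against 45 and 19 in CAC controls, and 135, 131, 247, 226 and 194 in sporadic tumors, against 49, 35 and 28 in sporadic controls. Its log2 difference was 1.99 ± 0.37 (adjusted p = 0.0017) in the CAC model and 2.31 ± 0.31 (adjusted p = 1.41e-04) in the sporadic model. The 2 probe sets measure the same gene on the same arrays, so they are not independent. Hoxa9 supplied both higher calls of the CAC comparison, and without CAC tumor 1 the log2 differences there were 1.80 and 1.89.

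Hoxa10, the next gene of the cluster and a paralog of Hoxd10, rose in the sporadic model. Its probe set, which has the suffix _a_at for several transcripts of a gene, read 157, 116, 269, 166 and 155 in sporadic tumors, against 71, 84 and 86 in sporadic controls. The groups did not overlap, and the log2 difference was 1.05 ± 0.23 (2.07-fold, adjusted p = 0.00329). CAC tumors read 177, 184, 141 and 139, against 104 and 140 in CAC controls. There the lowest tumor fell just under the higher control, and the log2 difference of 0.40 ± 0.27 did not pass (adjusted p = 0.289). The difference between the models was not shown: the CAC change minus the sporadic change was -0.66 (95% interval -1.44 to 0.13, adjusted p = 0.307).

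Hoxa13, the last Hox gene of that cluster, acts in the most distal gut and in the limb. CAC tumors read 48, 34, 26 and 43, against 174 and 135 in CAC controls. No value of the groups overlapped, and the log2 difference was -2.06 ± 0.40 (0.24 of the control level, adjusted p = 0.00201), or -2.19 without CAC tumor 1. Sporadic tumors read 28, 30, 49, 66 and 72, against 98, 81 and 69 in sporadic controls. The brightest tumor exceeded the dimmest control, and the log2 difference of -0.85 ± 0.34 did not pass (adjusted p = 0.0628). This value sat close to the threshold and passed under 5 of the alternatives, with adjusted p between 0.0236 and 0.188 over all of them. The CAC change minus the sporadic change was -1.21 ± 0.52, with a 95% interval of -2.37 to -0.06 and an adjusted p of 0.205, so a difference between the models did not pass. The authors' deposited table gives Hoxa13 as 4.16-fold down in CAC tumors (corrected p = 0.0102) and 1.79-fold down in sporadic tumors (corrected p = 0.105).

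In CAC tumors Hoxa9 and Hoxa13 changed in opposite directions within a single cluster. The 250 bases before their start sites are shown because the genes lie in the same cluster but have unlike start regions. The sequences are from RefSeq (GRCm38.p6), at chr6:52227371-52227620 for Hoxa9 and chr6:52260881-52261130 for Hoxa13, both on the minus strand, read 5′ to 3′. Capitals mark each CG dinucleotide, the site of DNA methylation in mammals.
Hoxa9: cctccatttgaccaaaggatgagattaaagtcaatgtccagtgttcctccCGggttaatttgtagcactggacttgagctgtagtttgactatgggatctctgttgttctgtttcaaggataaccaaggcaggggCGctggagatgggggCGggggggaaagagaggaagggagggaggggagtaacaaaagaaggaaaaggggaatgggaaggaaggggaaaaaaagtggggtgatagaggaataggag
Hoxa13: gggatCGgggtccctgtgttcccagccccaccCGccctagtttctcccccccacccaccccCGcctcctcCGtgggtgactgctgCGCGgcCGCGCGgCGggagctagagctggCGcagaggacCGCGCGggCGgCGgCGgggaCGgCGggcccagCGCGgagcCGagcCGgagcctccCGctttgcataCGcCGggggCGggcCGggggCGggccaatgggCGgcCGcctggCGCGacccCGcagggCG
The Hoxa9 window held 3 CG sites at 49.6% G and C, and the Hoxa13 window held 35 at 80%. The median was 6 CG sites and 52.4% over all 32851 windows of the table. Windows were found for 21 of the member genes, with a median of 12 CG sites and 58% G and C over 23 windows. The motif TTTATNG, or CNATAAA when read on the other strand, is a core bound by CDX and posterior HOX proteins. It is in neither sequence on either strand. It was found in 2 of the 23 Hox windows (8.7%) and in 9.81% of all windows.

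Hoxb13, a posterior HOX protein that in the adult is known from the distal colon and the prostate, fell in tumors of both models. CAC tumors read 1102, 1423, 1625 and 1733, against 3446 and 3913 in CAC controls. Sporadic tumors read 1548, 1332, 1964, 1797 and 1736, against 4539, 4401 and 4750 in sporadic controls. The tumors clustered well below the controls with no overlap in either model, and the controls of a group lay close to each other. On the log2 scale the means were 10.50 ± 0.29 in CAC tumors (SD, n = 4) and 11.84 ± 0.13 in CAC controls (SD, n = 2), and 10.70 ± 0.22 in sporadic tumors (SD, n = 5) and 12.16 ± 0.06 in sporadic controls (SD, n = 3).

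The log2 difference of Hoxb13 was -1.34 ± 0.18 in the CAC model (0.395 of the control level, adjusted p = 1.78e-04). It was -1.46 ± 0.15 in the sporadic model (0.364 of the control level, adjusted p = 2.07e-05). The changes differed between the models by 0.12 (95% interval -0.41 to 0.64, adjusted p = 0.856). Without CAC tumor 1, the dimmest of the CAC tumors, the CAC difference was -1.21. The authors' deposited table gives 2.53-fold down (corrected p = 0.0134) and 2.75-fold down (corrected p = 4.89e-04) in the CAC and the sporadic model. Both Hoxb13 and the summed epithelial markers were lower in tumors. Of the 8 epithelial markers, 4 passed as lower in CAC tumors and 5 in sporadic tumors, with median log2 differences of -0.45 and -0.49. Krt18, a keratin of simple epithelium, passed as higher in both models (1.00 and 0.98, adjusted p = 7.11e-04 and 1.73e-04), and Epcam, an adhesion molecule of epithelial cells, passed in neither (-0.12 and 0.08, adjusted p = 0.356 and 0.452). Their part in the Hoxb13 result was not tested.

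**Figure D3:**
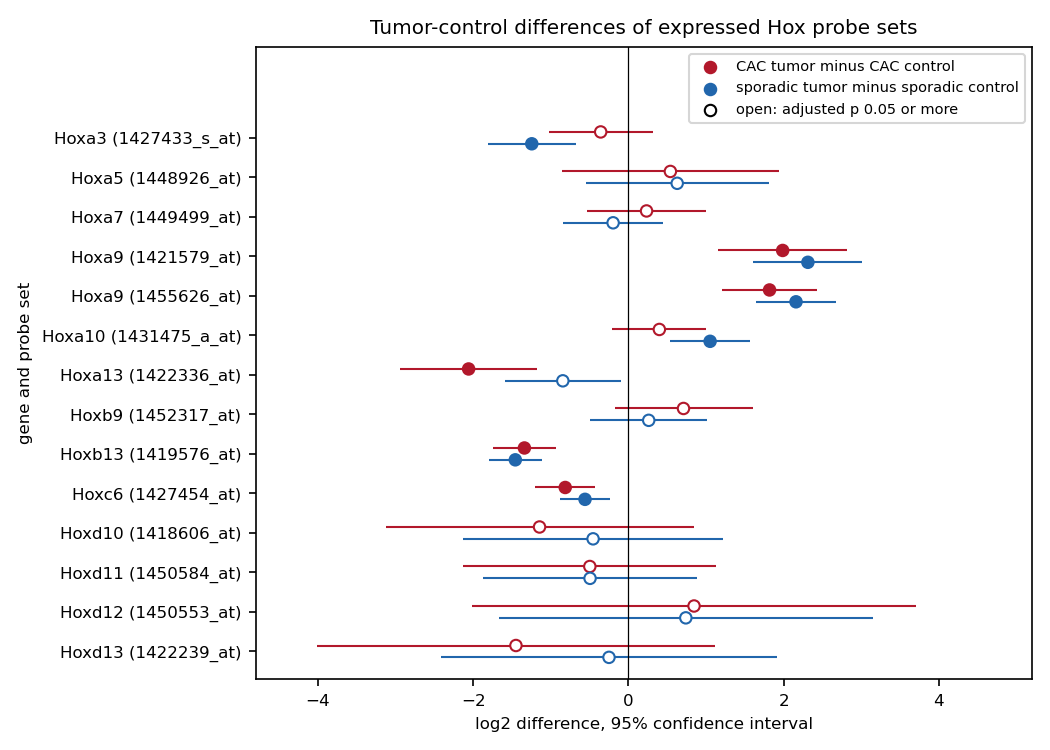
Log2 difference of tumor minus control (points) with its 95% confidence interval (lines) for each of the 14 expressed Hox probe sets, CAC model above the sporadic model, filled where the adjusted p was under 0.05. The Hoxa9 intervals lie right of 0 and the Hoxb13 and Hoxc6 intervals left of 0 in both models, while the 4 Hoxd intervals are wide and include 0.

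Hoxa3 and Hoxc6 were the other expressed Hox genes that passed, and both were faint. Hoxa3, known for its role in the pharyngeal arches and thymus, read 11, 10, 13, 16 and 16 in sporadic tumors, against 40, 33 and 22 in sporadic controls. These groups did not overlap, and the log2 difference was -1.25 ± 0.25 (0.422 of the control level, adjusted p = 0.00212), or -0.69 with an offset of 16 before log2. CAC tumors read 12, 10, 12 and 7, against 15 and 11 in CAC controls, with overlap and a log2 difference of -0.36 (adjusted p = 0.403). The second Hoxa3 probe set (1452421_at) was dim, at 8 on every tumor array, against 9 and 10 in CAC controls and 9 on every sporadic control. It passed as lower in both models by these 1 or 2 rounded units (log2 differences -0.25 and -0.17, adjusted p = 6.99e-05 and 2.21e-04).

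Hoxc6 (1427454_at) read 8 in each CAC tumor, against 18 and 11 in CAC controls, and 6, 8, 7, 7 and 6 in sporadic tumors, against 11, 9 and 10 in sporadic controls. All tumors were below all controls of their model. Both sporadic group means lay under 10, so that call is of the dim kind. The log2 difference was -0.82 ± 0.17 in the CAC model (adjusted p = 0.00345) and -0.56 ± 0.14 in the sporadic model (adjusted p = 0.00894). With an offset of 16 the log2 difference was -0.34 and -0.19. With the replicate number as a block the sporadic value no longer passed (adjusted p = 0.0598). The other 2 Hoxc6 probe sets were dim.

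Hoxa5, Hoxa7 and Hoxb9, genes of the middle to posterior trunk, did not pass in either model. Hoxa5, which in the mouse gut is known from the connective tissue, read 89, 39, 23 and 32 in CAC tumors, against 28 and 27 in CAC controls, and 43, 24, 116, 39 and 93 in sporadic tumors, against 31, 36 and 37 in sporadic controls. The tumors spread widely around narrow controls. The SD of log2 values was 0.83 in CAC tumors and 0.04 in the 2 CAC controls, and 0.94 in sporadic tumors and 0.14 in sporadic controls. Control arrays are pools of mice whereas each tumor array is 1 mouse, so these spreads are not of like samples. The log2 differences were 0.54 (adjusted p = 0.58) and 0.63 (adjusted p = 0.39). Hoxa7 read 35, 26, 23 and 17 in CAC tumors, against 16 and 27 in CAC controls, and 25, 23, 28, 24 and 36 in sporadic tumors, against 47, 23 and 27 in sporadic controls. Its groups overlapped in both models (log2 differences 0.23 and -0.20, adjusted p = 0.691 and 0.663).

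Hoxb9, the Hoxb neighbour of Hoxb13 on the chromosome, read 17, 45, 49 and 43 in CAC tumors, against 25 and 19 in CAC controls. The tumor with the squamous keratins was the low one, below both controls, and the other 3 were above both. The log2 difference of 0.71 ± 0.40 did not pass (adjusted p = 0.195), and without CAC tumor 1 it was 1.06 and passed (adjusted p = 0.00852). In the sporadic model it read 31, 35, 28, 25 and 22 in tumors, against 19, 20 and 33 in controls. Those groups overlapped, with a log2 difference of 0.26 (adjusted p = 0.604).

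In the Hoxd cluster the 4 expressed genes, Hoxd10 to Hoxd13, are known for patterning the limb, the genital bud and the anal sphincter, and none of them passed. The log2 values of each spread more between tumors than between controls of the same model. Here too the controls are pools of mice and each tumor is 1 mouse, so the spreads are not of like samples. Hoxd13, the most posterior member, read 254, 122, 73 and 7 in CAC tumors, against 166 and 179 in CAC controls. It read 113, 188, 115, 515 and 360 in sporadic tumors, against 235, 242 and 292 in sporadic controls. Tumors lay on both sides of the controls in each model. The SD of log2 values was 2.24 in CAC tumors and 0.08 in CAC controls, and 0.98 in sporadic tumors and 0.17 in sporadic controls.

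The log2 difference of Hoxd13 was -1.45 ± 1.16 in the CAC model (adjusted p = 0.376) and -0.25 ± 0.98 in the sporadic model (adjusted p = 0.954). Hoxd10 read 41, 56, 64 and 5 in CAC tumors, against 60 and 70 in CAC controls, and 33, 57, 25, 76 and 61 in sporadic tumors, against 43, 93 and 65 in sporadic controls. Hoxd11 read 14, 13, 13 and 3 in CAC tumors, against 14 and 12 in CAC controls, and 8, 13, 5, 28 and 21 in sporadic tumors, against 16, 19 and 18 in sporadic controls. CAC tumor 4 was thus the lowest of all 14 arrays for Hoxd10, Hoxd11 and Hoxd13 alike. The log2 differences were -1.15 (adjusted p = 0.363) and -0.46 (adjusted p = 0.712) for Hoxd10, and -0.50 (adjusted p = 0.687) and -0.49 (adjusted p = 0.587) for Hoxd11, CAC model first.

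Much of the CAC difference in these genes came from that single tumor. Without CAC tumor 4 the log2 difference was -0.30 for Hoxd10, 0.04 for Hoxd11 and -0.39 for Hoxd13. The same array read 1733 for Hoxb13, the highest of the CAC tumors, 1162 for Hoxa9 (1455626_at) and 43 for Hoxa13, all within the range of the other CAC tumors or just above it. Its summed epithelial markers, 61500, were the highest among CAC tumors. Hoxd12 was near the floor on most arrays but bright in single tumors. It read 45, 5, 12 and 5 in CAC tumors, against 6 and 6 in CAC controls, and 5, 5, 5, 119 and 5 in sporadic tumors, against 6, 5 and 6 in sporadic controls. Sporadic tumor 4, with 119, was also the brightest array for Hoxd13 (515) and Hoxd11 (28), and CAC tumor 1, with 45, was the brightest CAC tumor for Hoxd13 (254). The log2 differences of Hoxd12 were 0.85 (adjusted p = 0.701) and 0.74 (adjusted p = 0.662), and without sporadic tumor 4 the sporadic value was -0.18. The dim Hoxd9 probe set read 12, 8, 6 and 6 in CAC tumors, against 6 and 7 in CAC controls, and 7, 20, 5, 6 and 15 in sporadic tumors, against 6 on every sporadic control.

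**Figure D4:**
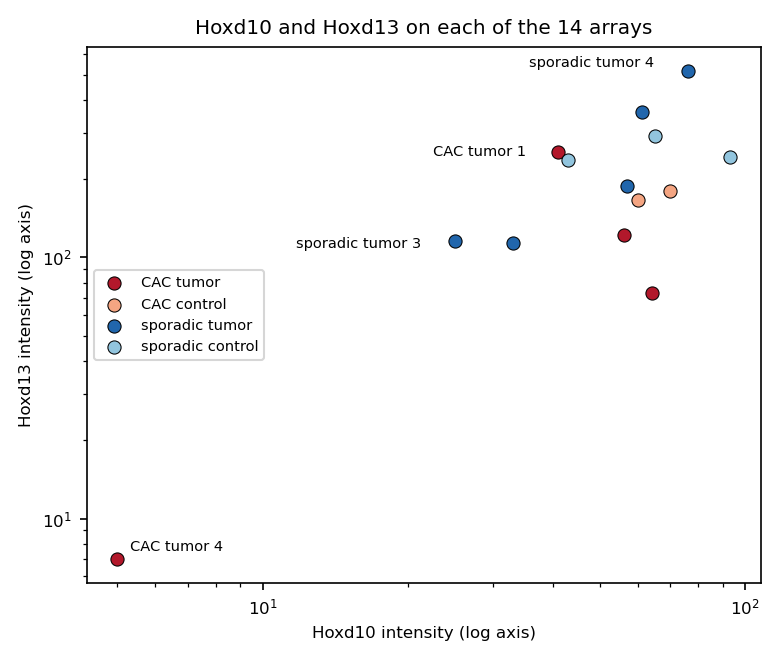
Intensity of Hoxd13 (vertical, log axis) against Hoxd10 (horizontal, log axis) on each of the 14 arrays, coloured by group. CAC tumor 4 lies alone at 5 and 7, whereas the controls lie together between 43 and 93 for Hoxd10 and between 166 and 292 for Hoxd13.

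In a direct comparison of the tumor types no expressed Hox gene passed. Of 40 Hox probe sets, 1 passed between CAC and sporadic tumors (background 15.5%), a dim probe set of Hoxc5 at 6 in the CAC tumors and 5 in the sporadic tumors (adjusted p = 3.47e-04). For Hoxa9 (1455626_at) CAC tumors minus sporadic tumors was -0.40 on the log2 scale (95% interval -0.87 to 0.08, adjusted p = 0.278), and for Hoxb13 it was -0.20 (-0.51 to 0.11, adjusted p = 0.433). The interval was wide for Hoxd13, at -3.76 to 0.23 around -1.77 (adjusted p = 0.242). These intervals do not show that the tumor types are alike.

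Between the control epithelia, 2 Hox probe sets passed (background 14%). Hoxa3 was lower in CAC controls than in sporadic controls, with a log2 difference of -1.26 ± 0.32 (adjusted p = 0.0246), and the dim Hoxa2 probe set was higher by 0.32 (adjusted p = 0.0247). Hoxa13 averaged 153 in CAC controls and 81.8 in sporadic controls, a log2 difference of 0.91 ± 0.42 that did not pass (adjusted p = 0.183). These control values enter the tumor comparisons above. The change in CAC tumors minus that in sporadic tumors passed for 0 of 40 Hox probe sets in limma (background 7.69%), and 6 had an unadjusted p under 0.05, among them Hoxa3 and Hoxa13.

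Genes next to the Hox clusters were also measured, and the most marked change was in Evx1. The lists of related genes in this and the next paragraphs hold genes chosen by their role or position, each through its brightest probe set. Of 10 neighbours measured, 5 passed as higher and 2 as lower in CAC tumors (background 14.2% and 25.6%), and 6 and 2 in sporadic tumors (background 17.8% and 28.2%). The median log2 difference was 0.57 and 0.77, against -0.05 and -0.04 over all probe sets. Of the 10 neighbours, 9 had a group mean of at least 10. Among all 14269 such probe sets, 3214 passed as higher and 3144 as lower in CAC tumors, and 3973 and 3959 in sporadic tumors. Evx1, a homeobox gene that follows Hoxa13 on chromosome 6 and acts in the posterior embryo, read 50, 53, 62 and 50 in CAC tumors and 50, 71, 80, 101 and 111 in sporadic tumors, against 5 on every control array. Every tumor was thus well above a control group at the floor. The log2 difference was 3.42 ± 0.25 in the CAC model (adjusted p = 1.33e-06) and 3.99 ± 0.21 in the sporadic model (adjusted p = 6.15e-08). Its size depends on the floor, and with an offset of 16 it was 1.73 and 2.19.

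The 250 bases before the Evx1 start (RefSeq, GRCm38.p6, chr6:52313248-52313497, plus strand) are shown beside those of Hoxa9 and Hoxa13, since Evx1 lies next to Hoxa13 and moved the other way in CAC tumors. Capitals again mark CG dinucleotides.
Evx1: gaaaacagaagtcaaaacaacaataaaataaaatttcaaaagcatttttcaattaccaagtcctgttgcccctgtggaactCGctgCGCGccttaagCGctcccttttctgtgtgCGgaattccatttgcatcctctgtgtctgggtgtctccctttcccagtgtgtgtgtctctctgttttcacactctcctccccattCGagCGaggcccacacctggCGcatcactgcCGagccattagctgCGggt
It held 10 CG sites at 49.6% G and C, and 1 match to the motif TTTATNG. Beyond Evx1, Snx10, a sorting nexin gene on the other side of the cluster, was higher by 1.62 (adjusted p = 0.00115) in CAC tumors and 2.93 (adjusted p = 3.11e-06) in sporadic tumors on the log2 scale. Cbx5, a heterochromatin protein gene beside the Hoxc cluster, was higher by 1.43 (adjusted p = 4.60e-04) and 1.54 (adjusted p = 6.11e-05). Hnrnpa1, an RNA-binding protein gene near it, was higher by 1.08 (adjusted p = 4.74e-04) and 0.77 (adjusted p = 0.00119). The name of the Hnrnpa1 probe set ends in the less specific suffix _x_at, so its signal can include related transcripts.

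The ParaHox genes, a sister family of the Hox clusters that includes the Cdx regulators of the intestine, were lower where they passed. Of 6 measured, 4 passed as lower in CAC tumors and 2 in sporadic tumors, and none as higher (median log2 differences -0.24 and -0.13), against 25.6% and 28.2% of all probe sets passing as lower. Cdx1, a homeobox factor of the intestinal epithelium, read 279, 107, 112 and 170 in CAC tumors, against 603 and 772 in CAC controls, and 170, 66, 159, 200 and 180 in sporadic tumors, against 1489, 1611 and 1497 in sporadic controls. No groups overlapped, and the log2 difference was -2.14 ± 0.46 (adjusted p = 0.00375) and -3.40 ± 0.39 (adjusted p = 4.02e-05). Cdx2, its partner and a regulator of intestinal identity, read 9, 14, 11 and 24 in CAC tumors, against 56 and 35 in CAC controls, and 8, 10, 8, 9 and 10 in sporadic tumors, against 11, 11 and 12 in sporadic controls. Its log2 difference in CAC tumors was -1.71 (adjusted p = 0.00172), a call lost when the CAC arrays alone were fitted (adjusted p = 0.0592). In the sporadic model the tumors were below the controls with no overlap, by 1 to 4 units, and the log2 difference of -0.34 did not pass (adjusted p = 0.358). The Cdx2 controls themselves differed, with group means of 44.3 in CAC and 11.3 in sporadic controls (log2 difference 1.97, adjusted p = 0.00311). Between the tumor types Cdx2 did not pass (0.59, adjusted p = 0.15). The CAC change minus the sporadic change was -1.37 and did not pass (adjusted p = 0.0846). Cdx4 read 5 on every tumor array and 6 on every control array, again a single rounded unit, and Pdx1 had group means of 6 in CAC tumors and 7 in CAC controls, so 2 of the 4 calls in CAC tumors were such steps.

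**Figure D5:**
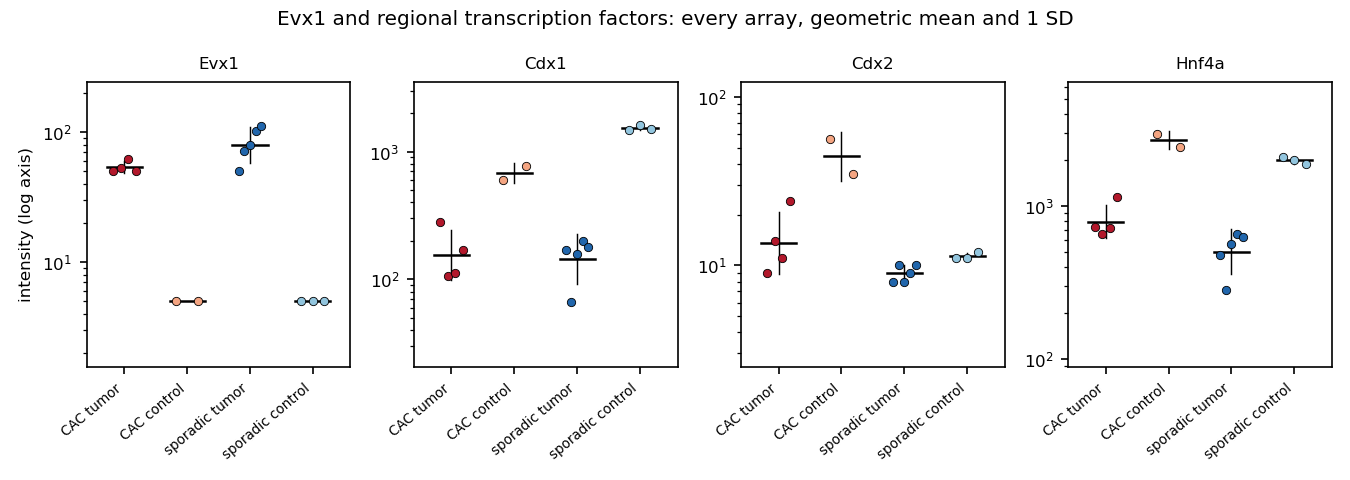
Intensity (log axis, a separate range for each panel) of Evx1, Cdx1, Cdx2 and Hnf4a on every array (points), with the geometric mean (bar) and 1 SD of the log2 values (line) of CAC tumors, CAC controls, sporadic tumors and sporadic controls. Evx1 is at 5 in all controls and at 50 or more in all tumors, and Cdx1 and Hnf4a lie lower in all tumors.

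Of 17 other regional regulators of the gut, 3 passed as higher and 5 as lower in each model, shares near those of all probe sets (14.2% and 25.6% in CAC tumors, 17.8% and 28.2% in sporadic tumors). Hnf4a, a nuclear receptor of the intestinal epithelium, had a log2 difference of -1.77 in CAC tumors (adjusted p = 0.00123) and -1.99 in sporadic tumors (adjusted p = 1.26e-04). Zfhx3, a zinc finger homeobox factor, read 35, 56, 53 and 49 in CAC tumors, against 12 and 19 in CAC controls, and 112, 121, 110, 93 and 116 in sporadic tumors, against 10, 12 and 9 in sporadic controls. It was higher by 1.65 in CAC tumors (adjusted p = 1.50e-04) and 3.42 in sporadic tumors (adjusted p = 6.88e-08), and the change in CAC tumors was smaller by 1.77 (CAC minus sporadic -1.77 ± 0.29, adjusted p = 0.00216). Gata5, a zinc finger factor of endoderm and heart, was higher by 1.96 (adjusted p = 0.0265) and 2.08 (adjusted p = 0.00724) in CAC and sporadic tumors. The CAC call was lost under 7 of 23 alternatives, with adjusted p up to 0.237 without CAC control 2, and at 0.104 when the CAC arrays alone were fitted and 0.0724 with the replicate number as a block.

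HOX proteins bind DNA together with TALE homeodomain cofactors, the Pbx, Meis and Pknox proteins, and few of these were expressed on the arrays. Of 7 measured, 2 had a group mean of at least 10. None passed in CAC tumors, and Pknox1 alone passed in sporadic tumors, where it read 23, 37, 31, 34 and 38, against 27, 12 and 13 in sporadic controls (log2 difference 0.99 ± 0.27, adjusted p = 0.0118). This call was lost without sporadic control 2 or sporadic control 3 and with the replicate number as a block (adjusted p = 0.0592, 0.061 and 0.0757). Meis1 passed in neither model, with a log2 difference of -0.08 for CAC tumors (adjusted p = 0.83) and -0.14 for sporadic tumors (adjusted p = 0.479).

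Polycomb and trithorax genes, whose products keep Hox genes silent or active, were higher more often than lower. Of 22 measured, 8 passed as higher and 1 as lower in CAC tumors, and 11 and 4 in sporadic tumors, with median log2 differences of 0.41 and 0.61. Over all probe sets 14.2% were higher and 25.6% lower in CAC tumors, and 17.8% and 28.2% in sporadic tumors. That background includes dim probe sets, whereas all 22 genes had a group mean of at least 10. Among all 14269 such probe sets, higher and lower calls were about even. They were 3214 and 3144 in CAC tumors, and 3973 and 3959 in sporadic tumors. Ezh2, a histone methyltransferase of Polycomb repressive complexes, read 305, 284, 385 and 253 in CAC tumors, against 55 and 28 in CAC controls. Sporadic tumors read 346, 284, 382, 461 and 363, against 82, 60 and 65 in sporadic controls. The log2 difference of Ezh2 was 2.95 ± 0.27 (adjusted p = 9.87e-06) and 2.41 ± 0.23 (adjusted p = 9.61e-06). Ezh1 was the 1 gene lower in CAC tumors (-1.16, adjusted p = 0.00355), and it was also lower in sporadic tumors (-0.72, adjusted p = 0.0151). Kdm2b, a CpG-binding partner of Polycomb, was higher by 2.54 (adjusted p = 4.94e-06) and 1.40 (adjusted p = 1.03e-04), with a larger change in the CAC model by 1.14 (adjusted p = 0.0326). Its controls differed, with group means of 21.4 in CAC and 62.6 in sporadic controls (log2 difference -1.55, adjusted p = 0.00102). Between the tumor types Kdm2b did not pass (group means 124 and 165, log2 difference -0.41, adjusted p = 0.14). Cbx2, a Polycomb subunit, was higher by 1.64 (adjusted p = 0.00521) and 2.54 (adjusted p = 8.18e-05), or 0.88 and 1.52 with an offset of 16. Phc1, another subunit, was higher in sporadic tumors by 1.77 (adjusted p = 2.24e-04), and its log2 difference of 0.65 in CAC tumors did not pass (adjusted p = 0.117).

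Retinoic acid sets the anterior limits of Hox expression in the embryo, and of 4 of its enzymes measured, Aldh1a1 and Aldh1a3 passed in both models. Of 18 genes for posterior signals and retinoic acid, 4 passed as higher and 2 as lower in each model, against 14.2% and 25.6% of all probe sets in CAC tumors and 17.8% and 28.2% in sporadic tumors. Aldh1a1, which makes retinoic acid, read 14, 11, 10 and 13 in CAC tumors, against 763 and 223 in CAC controls, and 7, 9, 9, 11 and 9 in sporadic tumors, against 117, 190 and 214 in sporadic controls. Its log2 difference was -5.12 ± 0.41 (adjusted p = 2.92e-06) and -4.24 ± 0.35 (adjusted p = 2.77e-06). Aldh1a3, a second enzyme of that step, went the other way, with 223, 585, 1308 and 372 in CAC tumors, against 9 and 10 in CAC controls, and 162, 206, 135, 89 and 60 in sporadic tumors, against 8, 7 and 9 in sporadic controls. Its log2 difference was 5.72 ± 0.63 (adjusted p = 4.20e-05) and 3.90 ± 0.53 (adjusted p = 1.40e-04). Aldh1a2, another enzyme that makes retinoic acid, and Cyp26a1, which breaks it down, were near the floor and did not pass, with group means of at most 6 and 4.

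Rarb, a retinoic acid receptor gene, was higher in sporadic tumors by 4.35 on the log2 scale (adjusted p = 3.58e-04). In CAC tumors it read 8, 31, 84 and 20, against 7 and 7 in CAC controls, and did not pass (log2 difference 1.86, adjusted p = 0.0881), although it passed without CAC tumor 1 (adjusted p = 0.0184). Tbx3, a T-box factor, was higher by 4.51 (adjusted p = 1.17e-04) and 6.37 (adjusted p = 1.56e-06). The values of Aldh1a1 in tumors and of Aldh1a3, Rarb and Tbx3 in controls lay near the floor, so the sizes of these differences depend on it.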

How the data were processed

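RNA of 14 samples (4 CAC tumors, 2 CAC controls, 5 sporadic tumors, 3 sporadic controls) was labelled with biotin and hybridized to 1-colour Affymetrix arrays, and groups, replicate numbers, pools and blocks were taken from the labels. The deposited intensity per probe set was computed by the authors with GCRMA, per the submitters' processing notes. No GCRMA version or setting is given in the sources used here. Deposited values are whole numbers between 2 and 31599 for 22690 probe sets, and GCRMA signals of unexpressed genes collapse to a few units, so differences near the floor rest on rounding. The deposited table also holds, fold changes of tumor against control (a linear ratio, by the authors) and a corrected p-value for each, per the file headers, and the test behind it is not given there.

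After removal of 64 control probe sets, log2 intensities without offset were fitted in limma 3.58.1 (R 4.3.3) with 4 group means over all 14 arrays (10 residual and 0.543 prior degrees of freedom). Benjamini-Hochberg adjustment ran over 22626 probe sets, and an adjusted p under 0.05 passed. The fit was tested on simulated data. Errors after ± are standard errors unless named SD. Hox members, gene lists and tests were chosen with earlier results of these data known. Every Hox probe set that reached a group mean of 10 was named, and from other lists up to 4 passing genes with the largest change plus Cdx1, Cdx2 and Meis1. Some genes that the rule names are not reported here. Hoxc5, Hoxb8, Hoxa2 and Hoxd9 are named outside that rule, after their values were seen, as are Krt5, Krt13, Ezh1 and Hoxa11os. Gene symbols are those of the deposited table, 2367 of them updated through RefSeq synonyms, and promoter sequences are from RefSeq (GRCm38.p6). Raw array files were not used here. Alternatives were an offset of 16, added quantile normalization, eBayes with trend and robust options, a fit of the compared groups alone, a block for the replicate number, removal of dim probe sets, an adjusted p under 0.01, specific suffixes only, the series value table, and each array left out. The series value table held the same intensities for all 22690 probe sets, so that alternative repeats the main fit and could not differ from it.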

Additional observations from a re-analysis of the deposited data

Results flagged for a closer look

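Dixon's test of the highest or lowest array was applied to 111 groups of 4 or 5 tumors, and for continuous values chance alone marks about 1 in 20. These values are whole numbers, and an array is always marked where all others of its group tie. That held for Hoxd12, both Meis1 marks, Gfap, Trp63 and Phc1 in CAC tumor 1, so the rate does not apply to them. Among Hox genes the test marked Hoxb9 in CAC tumor 1 (17, below the other CAC tumors), Hoxd11 in CAC tumor 4 (3, below the others) and Hoxd12 in sporadic tumor 4 (119, above the others at 5).

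Among the related genes it marked Meis1 in CAC tumor 1 (9) and sporadic tumor 5 (8), each the highest of its group, Cdx1 in sporadic tumor 2 (66, the lowest), Phc1 in CAC tumor 1 (26, the highest) and sporadic tumor 3 (48, the lowest), Kdm2b in CAC tumor 2 (157, the highest) and Tbx3 in CAC tumor 1 (60, the lowest). Among markers of other cells it marked the highest value for Acta2 in sporadic tumor 1 (912), Ptprc in sporadic tumor 2 (115), Krt14 in CAC tumor 1 (1739), Trp63 in sporadic tumor 4 (8) and Gfap in CAC tumor 3 (8). It marked the lowest value for Ptprc (54), Csf1r (46) and Cd68 (26) in CAC tumor 1 and Krt14 in sporadic tumor 1 (31). CAC tumor 1 thus recurs, in Hoxb9, Meis1, Phc1, Tbx3, Krt14 and the 3 leukocyte markers, with its Meis1 and Phc1 marks from groups where all other arrays tied.

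The change in CAC tumors minus that in sporadic tumors passed for 5 of the genes named outside the Hox clusters, tested as an interaction in limma. It was -1.91 on the log2 scale for Vim (adjusted p = 0.0287), -1.77 for Zfhx3 (adjusted p = 0.00216), 1.14 for Kdm2b (adjusted p = 0.0326), -0.62 for Sox10 (adjusted p = 0.0192) and -0.22 for Pdx1 (adjusted p = 1.23e-09), with the last a step of 1 rounded unit. Zfhx3 passed between tumor types (-1.21, adjusted p = 7.56e-04) and not between controls (0.56, adjusted p = 0.128). Kdm2b passed between controls and not between tumor types. Vim passed in neither (tumors -0.675, adjusted p = 0.135, and controls 1.24, adjusted p = 0.0504). Median Sox10 was 15.5 in CAC controls and 9 in sporadic controls, CAC tumors and sporadic tumors.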

How the results depend on the processing

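Hoxa9 and Hoxb13 in both models, Hoxa13 in CAC tumors, and Hoxa10 and the expressed Hoxa3 probe set in sporadic tumors kept their direction and their side of the threshold under every alternative that held them. The run with specific suffixes does not hold the Hoxa10 probe set or the expressed Hoxa3 probe set. The counts moved with the dim probe sets. In the CAC comparison 15 Hox probe sets passed, against 9 after added quantile normalization, 4 when probe sets with a mean under 10 were removed and 5 when expressed Hox probe sets alone were counted, the last an alternative chosen after seeing the data. In the sporadic comparison 14 passed, against 6 and 6 under the last 2 of these settings. Leaving out 1 array at a time gave 13 to 15 in the CAC and 11 to 15 in the sporadic comparison. Between tumor types 1 passed, against 2 with only the groups compared, 0 under both removals of dim probe sets and 1 to 2 with 1 array left out. Between controls 2 passed, against 1 with only the groups compared, 1 with probe sets under 10 removed, 1 with specific suffixes, 1 among expressed ones, 0 at an adjusted p under 0.01 and 0 to 4 with 1 array left out. The difference of the changes passed for 0, against 1 after quantile normalization and 0 to 3 with 1 array left out, the 3 without CAC control 1.

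Same-numbered tumors and controls did not deviate together (correlations of deviations from -0.09 to 0.05), so the numbers share only a label. With the replicate number as a block 14 Hox probe sets passed in the CAC and 12 in the sporadic comparison, 1 between tumor types, 0 between controls and 0 for the difference. Hoxa13 in sporadic tumors passed after quantile normalization (adjusted p = 0.0289), with the block (0.0236), without dim probe sets (0.0352), and without sporadic tumor 4 (0.0404) or 5 (0.0284).

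Differences without a call changed sign for Hoxb9 in sporadic tumors (-0.03) and, in CAC tumors, Meis1 (0.10) after quantile normalization, and for Krt10 in CAC tumors with the block (0.006). With 1 array left out, log2 differences spanned 0 for Hoxd11 (-0.70 to 0.04, above 0 without CAC tumor 4) and Hoxa7 (-0.14 to 0.61, below 0 without CAC control 1) in CAC tumors. In sporadic tumors they did so for Hoxa7 (-0.41 to 0.11, above 0 without sporadic control 1) and Hoxd12 (-0.18 to 0.97, below 0 without sporadic tumor 4). Their causes were not tested. No detection calls were used, so intensities near the floor give no order of levels.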

Other observations

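Hoxa11os, the transcript antisense to Hoxa11, was no member of the Hox set, was chosen after its values were seen and was not tested. It read 79, 63, 85, 80 and 117 in sporadic tumors, against 213, 268 and 191 in sporadic controls, and 94, 59, 26 and 69 in CAC tumors, against 90 and 129 in CAC controls. The sporadic groups did not overlap, whereas CAC tumor 1 lay above the lower CAC control. The Hoxa11 probe set itself read 5 or less on every array except sporadic tumor 3, where it read 16. That array was also the brightest of all for both Hoxa9 probe sets (2397 and 247), Hoxa10 (269) and Hoxa5 (116).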
